A study of Mus musculus with 54 samples.

Results

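The Iroquois genes of the mouse lie in a pair of clusters, Irx1, Irx2 and Irx4 on chromosome 13 and Irx3, Irx5 and Irx6 on chromosome 8, and the chromatin of both clusters was described here through the enriched regions of 46 ChIP-seq libraries. The members were all enriched regions that overlapped 1 of 2 windows of the mm9 genome, chr13:72000000-73500000 for the Irx1-Irx2-Irx4 cluster and chr8:94250000-95300000 for the Irx3-Irx5-Irx6 cluster. They numbered 2346 of the 1590704 regions in all lists. Of these, 301 were H3K4me3, 582 H3K27me3, 273 H3K27ac, 1118 H3K4me1 and 72 RNA polymerase II phosphorylated on serine 5 (RNAPII Ser5P). The windows and the measures used here were chosen by calls, lengths and heights seen in earlier results of these same data, so the values below are a description and carry no test.

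Iroquois genes encode homeodomain transcription factors of the TALE class, which pattern the embryo along its axes and within organs. In the mouse heart, Irx4 is known as a gene of the ventricular muscle, Irx3 for its part in the fast conduction system, and Irx5 for the gradient of repolarisation across the ventricular wall. Irx1 and Irx2 are also expressed in the developing ventricle. Like many developmental regulators, genes of this kind commonly carry H3K4me3, a mark of gene starts, together with H3K27me3, the mark of the Polycomb repressor, while they are silent, a state called bivalent. H3K4me1 is found at enhancers, H3K27ac at enhancers and gene starts in use, and RNAPII Ser5P where transcription begins.

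The study took embryonic stem cells of the 129/Ola strain through embryoid bodies, Activin A, BMP4, VEGF and fibroblast growth factors toward heart muscle in culture. Sampled were the stem cells themselves at day 0 (ESC), the mesoderm they had formed by day 4 (MES), cardiac precursors at day 5.3 (CP) and cardiomyocytes at day 10 (CM), all of the same strain and protocol, and each library comes from the bulk culture of its stage. H3K4me1 had 3 libraries per stage, H3K4me3 and H3K27ac had 2, H3K27me3 had 2 in ESC and 3 later, and RNAPII Ser5P had 1 in ESC and 2 later, from chromatin sonicated and washed with altered buffers. In a bulk culture, a mark on fewer cells and a weaker mark on every cell cannot be told apart, and 2 marks called at the same place need not sit in the same cells.

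Library depth is unknown, and the lists differ in size within a mark. They hold 21264 to 54528 regions for H3K4me3, 2929 to 38392 for H3K27me3, 25170 to 73186 for H3K27ac, 31571 to 96999 for H3K4me1 and 11332 to 48837 for RNAPII Ser5P. The smallest H3K27me3 lists are ESC replicate 3, with 3252 regions, and CM replicate 3, with 2929. Covered length is therefore given for every library, and where it matters also as a share of all bases in that library's list. Peak height is given as a percentile within the list, where 100 is the tallest region. The stage labels could not be checked against marker genes, because no gene annotation of mm9 was at hand. The H3K27ac libraries of CM carry a cell type label of embryonic stem cells, whereas their title, source and time point say cardiomyocytes, and they were taken as CM.

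The limits of the windows cut through 1 joined region. The chr13 window began 81.251 kb before its first region, with the nearest region outside 76.674 kb away. It ended 11.025 kb after its last region and 3.1 kb before the next. The chr8 window began 0.601 kb before its first region and 1.224 kb after the last one outside, and its right edge fell inside an H3K4me1 region of 4900 bases found in 9 libraries.

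Promoter sequences are shown for their CG content, since gene starts rich in CG dinucleotides are the usual place of bivalent chromatin in stem cells. The RefSeq promoter table held 3 of the 6 members. The sequences below run from 250 bases before to 50 after the start of the gene in the GRCm38.p6 build, 5′ to 3′ on the strand of the gene, with every CG in capitals. CG reads the same on both strands, so each counts once. Irx2 is on the plus strand at chr13:72628570-72628869, Irx4 on the plus strand at chr13:73260247-73260546 and Irx3 on the minus strand at chr8:91801605-91801904.
Irx2: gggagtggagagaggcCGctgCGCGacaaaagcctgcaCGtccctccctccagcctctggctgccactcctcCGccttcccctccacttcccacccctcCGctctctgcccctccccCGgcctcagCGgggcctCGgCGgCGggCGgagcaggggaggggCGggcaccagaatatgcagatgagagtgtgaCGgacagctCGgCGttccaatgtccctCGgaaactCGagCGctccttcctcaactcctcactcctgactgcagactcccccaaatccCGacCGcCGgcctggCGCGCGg
Irx4: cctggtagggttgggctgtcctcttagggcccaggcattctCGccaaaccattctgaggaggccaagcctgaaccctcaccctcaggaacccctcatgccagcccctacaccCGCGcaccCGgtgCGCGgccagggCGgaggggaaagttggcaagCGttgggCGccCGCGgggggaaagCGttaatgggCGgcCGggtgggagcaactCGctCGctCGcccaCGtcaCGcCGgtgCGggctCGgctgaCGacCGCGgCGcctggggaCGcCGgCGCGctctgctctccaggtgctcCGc
Irx3: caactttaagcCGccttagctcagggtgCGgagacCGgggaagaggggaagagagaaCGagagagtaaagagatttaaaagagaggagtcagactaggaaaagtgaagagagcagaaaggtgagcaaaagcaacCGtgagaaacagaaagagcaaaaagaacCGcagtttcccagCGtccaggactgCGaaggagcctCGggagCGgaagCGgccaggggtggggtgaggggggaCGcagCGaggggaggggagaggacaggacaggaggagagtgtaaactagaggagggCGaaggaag
The Irx4 promoter held 31 CG dinucleotides and 70.7% G+C, the Irx2 promoter 25 and 69% and the Irx3 promoter 14 and 56%. Across the 32851 promoters of the table, the median was 7 CG and 52.7% G+C, and 94.6% held at least 1 CG. At least as many CG as Irx4 were found in 10.6% of all promoters, as many as Irx2 in 18.4% and as many as Irx3 in 36.3%. The first pair lay above the upper quartile of 20 CG and Irx3 between the median and that quartile. The Irx1, Irx5 and Irx6 promoters were not used here.

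These coordinates belong to GRCm38.p6 and cannot be laid over the lists, which are in mm9, so no region was assigned to a gene. The order of genes is all that was taken from the annotation. On chromosome 13 it runs Irx1, Irx2, Irx4, Ndufs6, a subunit of mitochondrial complex I, Mrpl36, a protein of the mitochondrial ribosome, the long noncoding RNA Eprn, and Lpcat1, an enzyme of phospholipid synthesis, with several noncoding RNAs and pseudogenes between the Irx genes. On chromosome 8 it runs Irx3, its antisense neighbour Irx3os, further noncoding RNAs, Crnde, a long noncoding RNA, then Irx5, Irx6 and Mmp2, a matrix metalloproteinase. Irx3 and Irx3os are antisense partners, and ChIP-seq of chromatin does not tell strands apart.

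H3K4me3 regions were joined into loci where they lay within 2 kb of each other, and a locus was kept if every H3K4me3 library of at least 1 stage had a call there. This gave 32660 loci on chromosomes 1 to 19 and X, of which 26 lay in the windows, 13 in each. At 10 of the 26, at least 1 stage had H3K27me3 in each of its libraries, 5 loci per window, and these are lettered A to J in order of position. Genome-wide 4726 loci, or 14.5%, met the same condition. Locus A is chr13:72094151-72105950, B chr13:72761176-72770275, C chr13:72773701-72777775, D chr13:73397451-73403325 and E chr13:73405726-73410350. Locus F is chr8:94321501-94331150, G chr8:94877376-94890975, H chr8:94983901-94985175, I chr8:95196976-95199075 and J chr8:95201951-95202825.

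The chr13 loci stood in 3 groups far apart, A alone, B beside C and D beside E. From A to B lay 655.225 kb and from C to D 619.675 kb, whereas B and C were 3.425 kb apart and D and E 2.4 kb. On chromosome 8, F and G were 546.225 kb apart, G and H 92.925 kb, H and I 211.8 kb, and I and J 2.875 kb. The 4 longest were G with 13.6 kb, A with 11.8 kb, F with 9.65 kb and B with 9.1 kb. The median locus of the genome was 1.5 kb long, and the median of the 4726 loci with H3K27me3 was 2.125 kb.

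**Figure D1:**
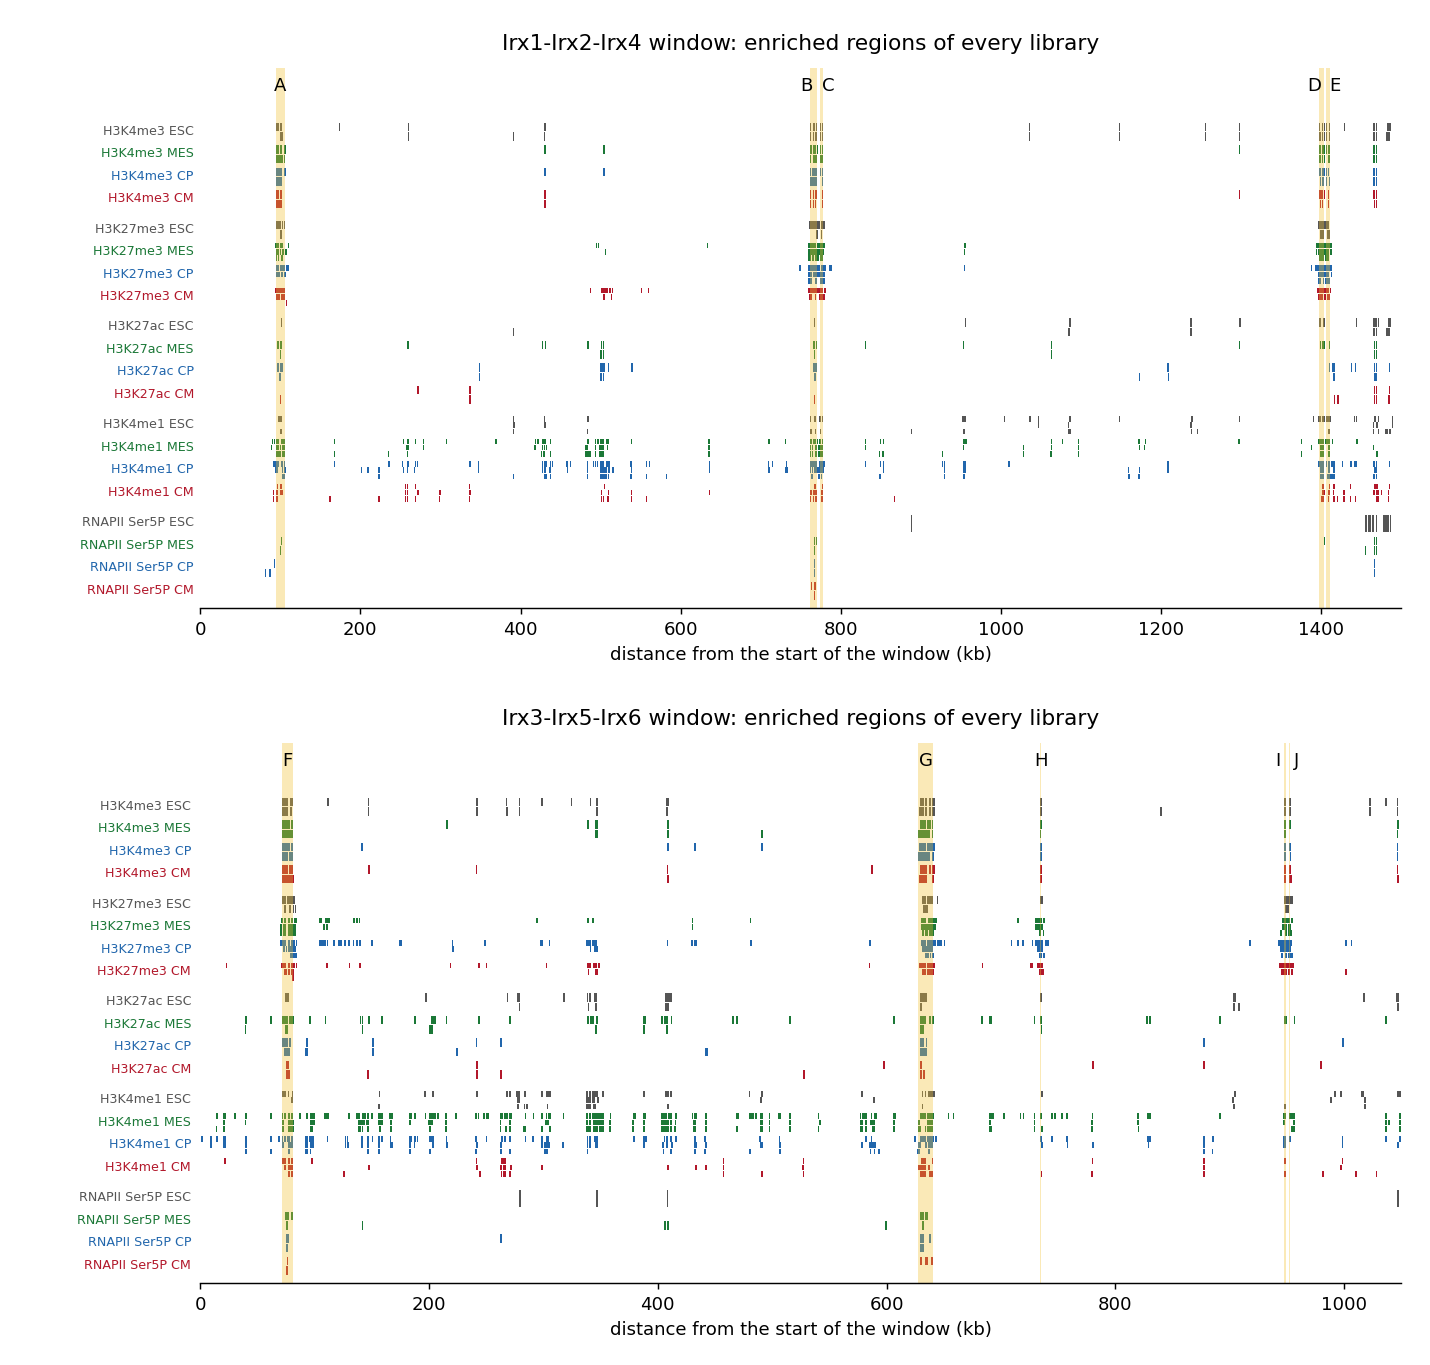
Enriched regions of every library across the Irx1-Irx2-Irx4 window (top) and the Irx3-Irx5-Irx6 window (bottom), by distance from the start of the window in kb. Rows are marks and stages, thin lines within a row are libraries, regions under 1.5 kb are drawn 1.5 kb wide, and yellow bands are loci A to J. The bands were chosen for their H3K27me3 calls, and 117 of the 133 H3K27me3 regions of the windows, joined over libraries, lie apart from any H3K4me3 locus. H3K4me1 regions of MES and CP are spread through the space between F and G.

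The H3K4me3 domains at the longest loci were wider in mesoderm and cardiac precursors than in stem cells, and narrower again in cardiomyocytes. The length of a locus is the joined extent of the H3K4me3 regions of all libraries. These loci are thus long in part because H3K4me3 was wide there at some stage. At A, H3K4me3 covered 2.85 and 1.275 kb in the ESC libraries, 7.15 and 7.6 kb in MES, 8.525 and 7.475 kb in CP and 4.425 and 4.875 kb in CM. At B it covered 3.625 and 3.025 kb in ESC, 5.85 and 5.8 kb in MES, 7.025 and 6.95 kb in CP and 4.625 and 5.05 kb in CM. Neither locus had a CM library as high as a CP library or as low as an ESC library. At F it covered 5.825 and 4.725 kb in ESC, 8.775 and 8.35 kb in MES, 8.75 and 7.875 kb in CP and 6.35 and 4.575 kb in CM. At G it covered 5.5 and 5.35 kb in ESC, 9.1 and 11.225 kb in MES, 9.475 and 10.0 kb in CP and 5.65 and 5.275 kb in CM. At these chr8 loci the CM libraries overlapped the ESC libraries, and all MES and CP libraries lay above both.

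The 6 shorter loci differed by fewer kb between stages. At C, H3K4me3 covered 1.475 and 1.25 kb in ESC, 2.5 and 2.1 kb in MES, 2.1 and 1.0 kb in CP and 1.825 and 1.675 kb in CM. At D it covered 2.825 and 2.6 kb in ESC, 3.6 and 2.475 kb in MES, 4.8 and 1.825 kb in CP and 3.1 and 1.975 kb in CM. At E it covered 1.325 and 1.35 kb in ESC, 2.625 and 1.275 kb in MES, 2.4 and 0.55 kb in CP and 1.8 and 1.35 kb in CM. All 4 stages overlapped at D and E, where the 2 CP libraries lay furthest apart. At H the values ran from 0.9 to 1.25 kb and at I from 1.375 to 2.1 kb over the 8 libraries. J was the only lettered locus without H3K4me3 in some library, with 0.75 and 0.825 kb in ESC, 0.575 and 0 kb in MES, 0.65 and 0.05 kb in CP and 0.525 and 0.2 kb in CM.

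**Figure D2:**
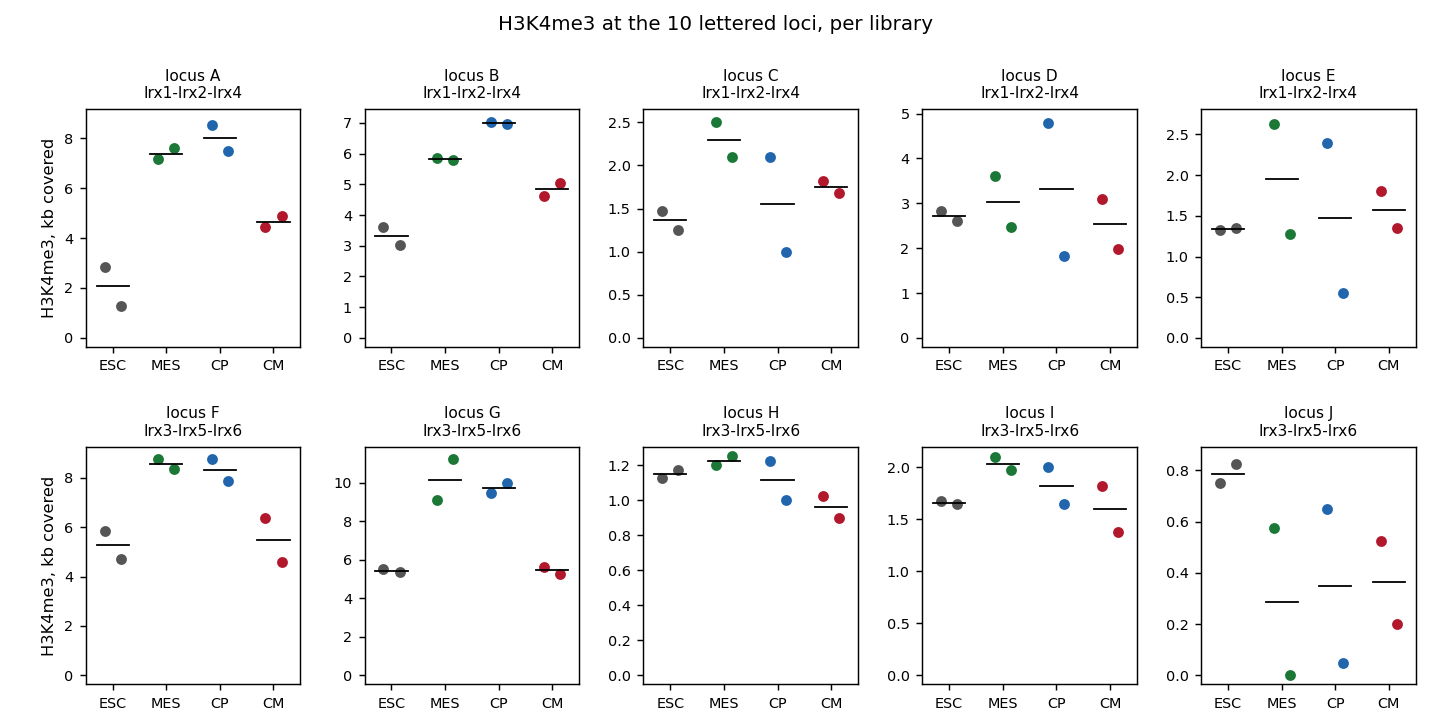
H3K4me3 at loci A to J, with the covered length in kb on the vertical axis and the stage on the horizontal axis. Points are libraries and lines their means. At A, B, F and G both MES and both CP libraries lie above both ESC libraries and both CM libraries.

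H3K4me3 was present in every library at 9 of the lettered loci, A to I, and at 15557 loci of the genome. The 2 unlettered window loci with H3K4me3 in every library are left out of the 9, here and below. The background holds loci with and without H3K27me3. Every MES library covered more bases than every ESC library at 7 of these 9 (A, B, C, F, G, H and I), against 16.1% of all such loci, and fewer at none, against 26.2%. Every CP library lay above every ESC library at 4 (A, B, F and G), against 7.65%, and below at none, against 37.3%. Every CM library lay below every CP library at the same 4, against 14.1%. Set against ESC, every CM library was higher at A, B and C, against 9.14%, and lower at H alone of the 9, against 45.4%. At the 2 unlettered loci, every CP and every CM library lay below every ESC library. At chr8:95295901-95297125 every MES library did too, with 0.075 and 0.4 kb against 0.975 and 1.225 kb in ESC. The windows were chosen with such patterns known, and the shares are given as their background only. With 1 replicate number left out, each stage has 1 library, so any difference counts as no overlap. The shares above do not apply to such counts. With replicate 2 of each stage left out, the CP and CM comparisons with ESC gave 9 and 8 higher, and CM lay below CP at 9. With replicate 1 left out, CM lay below CP at 6, above it at 3 and below ESC at 5, and CP and MES lay below ESC at 4 and 2.

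Summed over the 10 loci, H3K4me3 covered 26.975 and 23.225 kb in ESC, 43.475 and 42.05 kb in MES, 46.95 and 38.375 kb in CP and 31.15 and 27.25 kb in CM. As a share of all bases in the list, these were 0.0643 and 0.0472% in ESC, 0.147 and 0.129% in MES, 0.151 and 0.157% in CP and 0.109 and 0.112% in CM. The MES and CP libraries did not overlap those of ESC or CM on either scale. On the share, CM lay above ESC without overlap as well. Height percentiles did not follow the widths, with a median over the loci of 73.8 and 62.4 in ESC, 62 and 45 in MES, 59.0 and 47.8 in CP and 51.6 and 45.5 in CM. The ESC lists hold 54528 and 42092 regions, against at most 28880 in a later list, so percentiles are not on 1 scale across stages. Whether heights themselves followed the widths was not tested. Single loci differed in direction. At A the tallest peak stood at the 79.6 and 79.8 percentiles in MES and 87.9 and 86.6 in CP, against 74 and 57 in ESC and 50.1 and 51.8 in CM. At D it stood at 73.6 and 61.1 in ESC, 55.3 and 30.6 in MES and 58.2 and 34.7 in CP.

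H3K27me3 was called on all 10 lettered loci in every library except ESC replicate 3, CP replicate 3 and CM replicate 3. It was called at 10 and 8 of them in ESC replicates 2 and 3, at 10 in each MES library, at 10, 10 and 9 in CP, and at 10, 10 and 1 in CM. Summed over the loci it covered 43.25 and 3.325 kb in ESC, 44.3, 47.525 and 24.575 kb in MES, 50.875, 39.4 and 14.275 kb in CP, and 50.05, 29.125 and 0.225 kb in CM. Libraries of a stage differed more than stages did, and the widest library of each stage lay between 43.25 and 50.875 kb. The peaks were tall for their lists, with a median percentile of 89.9 and 78.6 in ESC, 94.8, 92.8 and 86.7 in MES, 95.5, 89.0 and 74.1 in CP, and 96.0 and 84.1 in CM replicates 1 and 2. The loci were lettered for H3K27me3 calls in every library of a stage, so these values are in part fixed by that choice.

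As a share of all H3K27me3 bases in a list, the loci held 0.591 and 0.697% in ESC, 0.314, 0.326 and 0.422% in MES, 0.172, 0.200 and 0.152% in CP, and 0.432, 0.390 and 0.0547% in CM. All CP shares lay below all ESC and MES shares. The CP lists covered 29.7, 19.7 and 9.38 Mb in all, against 14.1, 14.6 and 5.83 Mb in MES and 7.32 and 0.477 Mb in ESC, and the part of list size in the shares was not tested.

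Single loci differed in how H3K27me3 sat on them. At A it covered 7.65 and 0.3 kb in ESC, 5.275, 6.525 and 1.125 kb in MES, 7.95, 1.45 and 0 kb in CP and 10.125, 3.1 and 0 kb in CM. At G it covered 8.95 and 0.525 kb in ESC, 8.05, 7.85 and 1.725 kb in MES, 9.775, 8.1 and 1.975 kb in CP and 9.7, 8.425 and 0 kb in CM. Stages overlapped widely at both. At the short locus H it covered 0.65 and 0 kb in ESC and between 1.25 and 1.275 kb, all or nearly all of the locus, in each of the 3 MES, the 3 CP and the first 2 CM libraries, but 0 in CM replicate 3. C was the only chr13 locus where all 3 CP libraries held over 3 kb, with 3.65, 4.075 and 3.5 kb, against 2.7, 4.075 and 1.325 kb in MES.

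**Figure D3:**
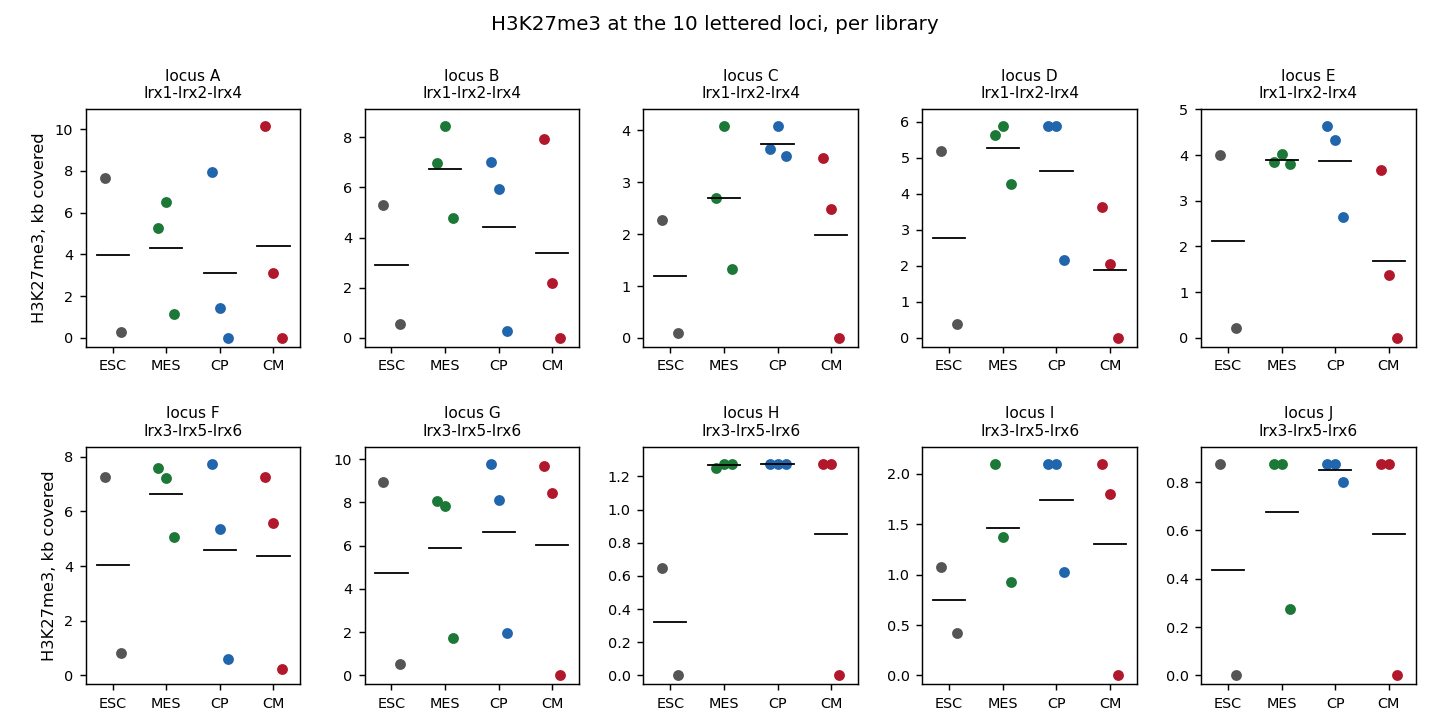
H3K27me3 at loci A to J, with the covered length in kb on the vertical axis and the stage on the horizontal axis. Points are libraries and lines their means. The libraries of a stage spread widely, and CM replicate 3 is at 0 at every locus except F.

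In some libraries the longest H3K27me3 region spanned neighbouring loci. CP replicate 1 had a region of 15800 bases at chr13:73394701-73410500 and MES replicate 2 one of 14350 bases at chr13:73395401-73409750, both over D and E. MES replicate 1 also joined D and E, with 7925 bases. On chromosome 8, I and J lay under 1 region of 7950 bases in CP replicate 1, chr8:95196726-95204675, and 1 of 7100 bases in CP replicate 2. In other libraries the longest region was at D (8175 bases in CP replicate 2 and 4675 in ESC replicate 2), B (6150 bases in CM replicate 1), A (1850 in CM replicate 2), C (3500 in CP replicate 3) or E (4550 in MES replicate 3) on chromosome 13. On chromosome 8 it was at F (4025 in ESC replicate 2 and 6850 in MES replicate 2), G (4100 in MES replicate 1, 5225 and 4375 in CM replicates 1 and 2), H (2275 in CP replicate 3) or I (1700 in MES replicate 3). The thin lists of ESC replicate 3 and CM replicate 3 had no region over 500 bases in either window.

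H3K4me3 and H3K27me3 were called together in every library at 8 of 26 window loci in ESC, 9 of 13 in MES, 9 of 12 in CP and 1 of 14 in CM, where the second number counts loci with H3K4me3 in every library of the stage. The background was 3.73% of such loci for the ESC libraries, 19% for MES, 21.2% for CP and 5.86% for CM. H and J were missing from the ESC count for want of a call in ESC replicate 3, A from the CP count for want of a call in CP replicate 3, and J from the MES count for want of H3K4me3 in MES replicate 2. F alone remained in CM. Without the small lists of ESC replicate 3 and CM replicate 3, a setting chosen after the data were seen, the count was 10 in ESC and 10 in CM.

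H3K27me3 was called in no library at 14 of the other 16 loci, which were left unlettered because no stage had it in every library. No H3K27me3 region of the windows was gained or lost between ESC and CM, out of 133, against 0.430% gained and 0.348% lost among all regions of the mark. For counts of gained and lost regions, the regions of a mark from all its libraries were joined where they overlapped or touched. A joined region was gained when every library of the later stage and none of the earlier stage had a call in it, and lost in the opposite case. A gain from ESC to CM thus needs a call in CM replicate 3, and a loss one in ESC replicate 3. These lists had only 3 and 22 regions in the windows, and the counts without them, given at the end, differed. Between MES and CP, 1 region was gained, the 825 bases at chr8:95194101-95194925, against 0.868%.

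Window by window, H3K27me3 covered 29.625 and 1.55 kb of the Irx1-Irx2-Irx4 window in ESC, 32.375, 40.675 and 18.05 kb in MES, 44.75, 31.65 and 10.8 kb in CP, and 37.975, 12.6 and 0.075 kb in CM. In the Irx3-Irx5-Irx6 window it covered 24.825 and 1.875 kb in ESC, 29.025, 29.475 and 11.675 kb in MES, 53.375, 30.225 and 10.675 kb in CP, and 36.25, 22.35 and 0.225 kb in CM. All stages overlapped in both windows. CP replicate 1, the largest list of the mark, placed 14.575 kb between F and G, where the other CP libraries placed 4.25 and 0.825 kb.

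At the 4 longest loci, RNAPII Ser5P was called in both MES libraries and not in the ESC library, and H3K27ac, already called in ESC replicate 1 at all 4, covered more bases in both MES libraries than in either ESC library at A, F and G. H3K27me3 was called at these loci, which were lettered for such calls, in every MES library. The RNAPII Ser5P calls of MES replicate 2 were short at A and B, 100 and 25 bases at the 31.5 and 7.40 height percentiles. At F and G the tallest stood at the 80.2 and 76.5 percentiles. At F, H3K27ac covered 1.2 and 0 kb in ESC, 6.225 and 3.125 kb in MES, 3.4 and 2.925 kb in CP and 0.625 and 1.35 kb in CM. At G it covered 3.1 and 0.2 kb in ESC, 5.6 and 3.45 kb in MES, 2.925 and 3.475 kb in CP and 0.625 and 1.575 kb in CM. At A it covered 0.5 and 0 kb in ESC, 2.9 and 1.6 kb in MES, 2.475 and 1.9 kb in CP and 0 and 1.775 kb in CM. In all 3, both MES libraries lay above both ESC libraries, and at F and G both lay above both CM libraries too.

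B overlapped between stages, with 0.65 and 0 kb in ESC, 2.625 and 0.35 kb in MES, 1.35 and 0.7 kb in CP and 0 and 0.5 kb in CM. D and H had some H3K27ac in ESC replicate 1 and in MES and none in CP or CM. E and I had it in MES replicate 1, E also in CP replicate 1. C and J had none in any library. Of the 9 loci A to I, 3 had more H3K27ac in every MES than in every ESC library, against a background of 17.9%, and 3 (F, G and H) had less in every CM than in every MES library, against 25.1%. The MES libraries differed, with 21.55 and 8.875 kb over all 10 loci in replicates 1 and 2. With replicate 2 left out the counts were 8 and 8, and with replicate 1 left out 5 and 3. Each stage then has 1 library, so any difference counts, and the shares above do not apply.

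RNAPII Ser5P was absent from all 10 loci in the single ESC library and was called at A, B, D, F and G later. At F it covered 1.3 and 1.075 kb in MES, 0.575 and 1.1 kb in CP and 0.125 and 0.45 kb in CM. At G it covered 2.15 and 0.675 kb in MES, 0.525 and 2.0 kb in CP and 1.075 and 0 kb in CM. At B it covered 0.575 and 0.025 kb in MES, 0.3 and 0.25 kb in CP and 0.4 and 0.1 kb in CM. A had it in MES alone, 0.5 and 0.1 kb, and D in MES replicate 1 alone, 0.075 kb.

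The ESC list was the largest of the mark, with 48837 regions. Across the windows, 2 of 44 RNAPII Ser5P regions were gained in CM against ESC, at B and F, against 1.06% of all regions, and 3 in MES against ESC, at B, F and G, against 2.30%. In CM replicate 2 the call at B was 100 bases at the 18.8 height percentile, and that at F 450 bases at the 49.9 percentile. The losses, 17 in CM against ESC, stood beside a background of 44.7%. The longest RNAPII Ser5P regions of ESC lay off the lettered loci, at chr13:73477176-73482025 with 4850 bases and chr8:94657726-94658550 with 825 bases. In MES they were chr13:73468176-73469400 with 1225 bases and chr8:94848501-94849650 with 1150 bases. In CP the longest on chromosome 8 was at G, with 1250 bases, and on chromosome 13 there were 2 of 300 bases, 1 of them at B. In CM they were at B, with 300 bases, and at G, with 525 bases.

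**Figure D4:**
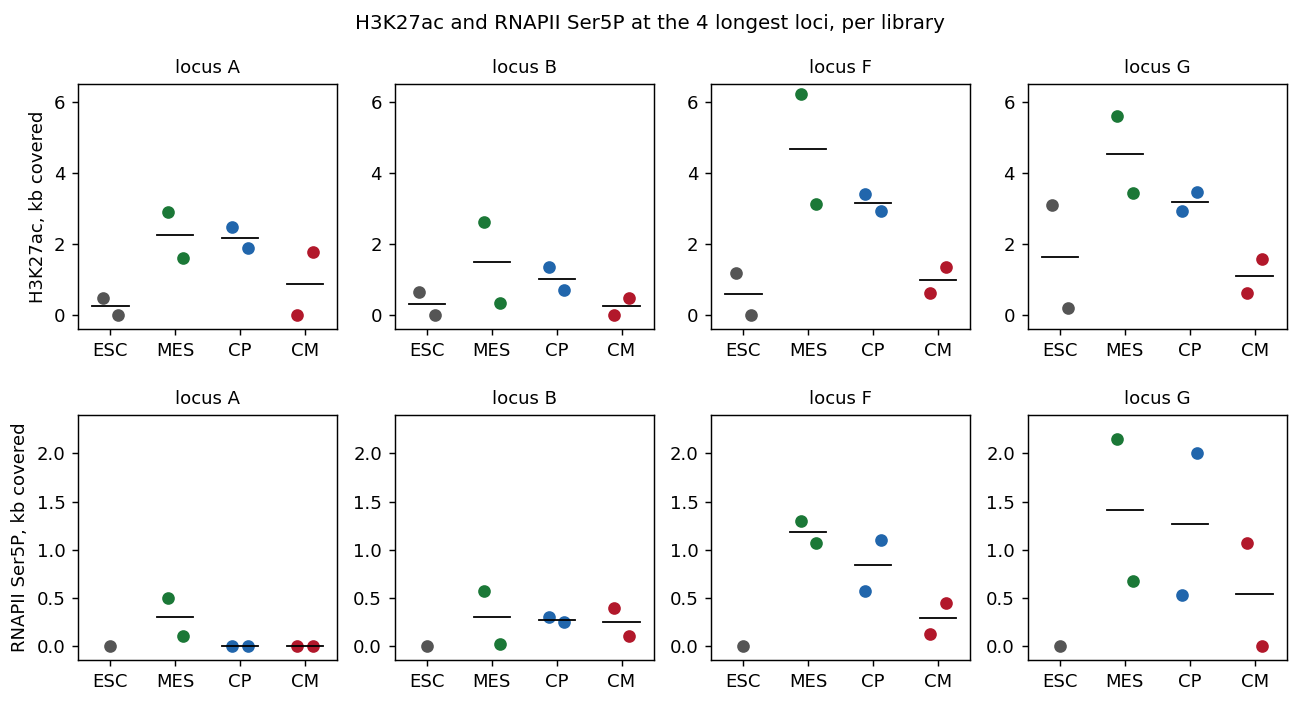
H3K27ac (top) and RNAPII Ser5P (bottom) at loci A, B, F and G, with the covered length in kb on the vertical axis and the stage on the horizontal axis. Points are libraries and lines the means of stages with 2 libraries. RNAPII Ser5P is at 0 in the ESC library at all 4 loci and above 0 in both MES libraries.

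H3K4me1 was called within loci A to G in every MES library, and within H, I and J in only some. Summed over the 10 loci it covered 16.6, 0.025 and 3.05 kb in ESC, 43.125, 38.475 and 36.975 kb in MES, 44.975, 25.0 and 16.075 kb in CP and 19.725, 21.85 and 22.225 kb in CM. At A, for example, it covered 0.7, 0 and 0.6 kb in ESC, 7.15, 8.95 and 8.575 kb in MES, 7.425, 4.0 and 4.2 kb in CP and 2.9, 3.475 and 2.775 kb in CM. Every MES library lay above every ESC library at 7 of the 9 loci (A to G), against 14.4% of loci genome-wide, and every CM library lay below every MES library at 6 (A, C, D, E, F and G), against 13.4%.

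Of the 16 unlettered loci, 2 had H3K4me3 in every library, chr13:73464551-73469700 and chr8:95295901-95297125. H3K4me3 was called in both ESC libraries and in no later library at 8 of all 26 window loci, none of them lettered, with lengths of 200 to 5300 bases, beside 35.7% of all loci in the genome. The 4 described next were singled out after their values were seen. The first of these, to the right of E, had H3K4me3 over 3.0 and 3.825 kb in ESC, 2.075 and 3.075 kb in MES, 2.225 and 1.925 kb in CP and 2.125 and 2.075 kb in CM, at the 91.7 to 98.9 percentiles of height. H3K27ac was called there in every library, H3K27me3 in none. RNAPII Ser5P covered 2.525 kb of it in ESC, 1.05 and 1.9 kb in MES, 0.125 and 0.3 kb in CP and none in CM.

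Its neighbour at chr13:73480901-73486200 had H3K4me3 and RNAPII Ser5P in stem cells alone. H3K4me3 covered 1.875 and 5.3 kb there in ESC and none later, and RNAPII Ser5P 3.75 kb in ESC and none later. H3K27ac covered 1.15 and 3.875 kb in ESC, 0 and 0 kb in MES, 0.5 and 0 kb in CP and 0.275 and 0.45 kb in CM. H3K4me1 covered 0, 0 and 1.5 kb in ESC, none in MES, 0.5, 0 and 0 kb in CP and 0.575, 0.475 and 0.325 kb in CM. In the Irx3-Irx5-Irx6 window, the locus at chr8:94656801-94659025 had H3K27ac over 1.725 and 2.225 kb in ESC and 0.75 and 1.8 kb in MES, and none in CP or CM. H3K4me3 covered 0.9 and 2.225 kb in ESC, 0.55 and 0.225 kb in MES, 0.375 and 0 kb in CP and 0.45 and 0.275 kb in CM.

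The locus at chr8:94594676-94596700 had H3K27ac at the early stages and H3K27me3 at the late ones. H3K27ac covered 1.4 and 1.4 kb of it in ESC and 0.4 and 1.425 kb in MES, and none in CP or CM. H3K27me3 covered none of it in ESC or MES, then 1.7, 0.875 and 0 kb in CP and 1.6, 0.375 and 0 kb in CM. H3K4me1 covered 1.25, 0.45 and 0.375 kb in ESC, 0.925, 2.025 and 2.025 kb in MES, 1.2, 1.5 and 0 kb in CP and none in CM. The only other unlettered locus with H3K27me3 was chr8:94656801-94659025, with 0.05 kb in CP replicate 1.

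Between A and B and between F and G, H3K4me1 covered more bases in mesoderm and cardiac precursors than in stem cells or cardiomyocytes. In the 546.225 kb between F and G it covered 15.6, 8.1 and 8.025 kb in ESC, 46.35, 64.05 and 55.425 kb in MES, 33.425, 30.65 and 20.65 kb in CP and 3.25, 5.925 and 5.6 kb in CM. No 2 stages overlapped, with MES highest, then CP, ESC and CM. How often other intervals of the genome show this order was not tested. As a share of all H3K4me1 bases in the list the order was the same and again without overlap, at 0.0224 to 0.0312% in ESC, 0.0834 to 0.113% in MES, 0.0509 to 0.0784% in CP and 0.00962 to 0.0164% in CM.

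In the 655.225 kb between A and B it covered 1.2, 1.25 and 1.075 kb in ESC, 15.475, 20.075 and 19 kb in MES, 23.875, 17.6 and 18.7 kb in CP and 3.425, 5.075 and 11.775 kb in CM. MES and CP overlapped there and lay above the other stages, and every CM library lay above every ESC library. The interval between C and D, of similar length, held less in every MES, CP and CM library, with 6.0, 2.45 and 3.2 kb in ESC, 7.375, 4.175 and 4.175 kb in MES, 6.125, 3.275 and 3.175 kb in CP and 0, 0 and 0.175 kb in CM.

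Of 319 H3K4me1 regions in the windows, 36 were gained in MES against ESC, or 11.3%, beside 5.12% of all H3K4me1 regions. Of these, 28 lay in the chr8 window, 20 of them between F and G, and 32 of the 36 lay apart from any H3K4me3 locus. In cardiomyocytes, 24 of the 36 were called in no library and 3 in every library. Losses in MES against ESC numbered 4, against 3.19%. In CM against CP, 17 were lost, or 5.33%, beside 1.73%, and 4 gained, beside 1.93%. In CM against ESC, 10 were gained, beside 5.25%, and 6 lost, beside 4.24%. The 36 became 46 to 51 when 1 replicate number was left out and 17 when every list was trimmed to an equal number of its tallest regions. The 17 losses in CM against CP became 28 without replicate 2 and 43 without replicate 3.

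The longest H3K4me1 region gained in CM against ESC lay between A and B, at chr13:72498301-72511000, 12700 bases long, and was singled out for its length. It joins the calls of several libraries, and no single list covered it whole. H3K4me1 covered none of it in ESC, 4800, 7125 and 5725 bases in MES, 6650, 7675 and 11400 bases in CP and 25, 1725 and 4400 bases in CM. Its tallest peaks stood at the 96.8 to 98.8 percentiles of the MES and CP lists, and at 1.81, 76.0 and 96.7 in CM. The gain in CM thus rests in part on the 25 bases of CM replicate 1. H3K27ac covered none of it in ESC, 1600 and 1550 bases in MES, 3300 and 3700 bases in CP and none in CM. RNAPII Ser5P was called there in no library, and H3K4me3 over 200 bases in MES replicate 1 and 575 in CP replicate 1 alone. H3K27me3 covered 50 bases in MES replicate 2, none in CP, and 1550, 275 and 0 bases in CM.

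**Figure D5:**
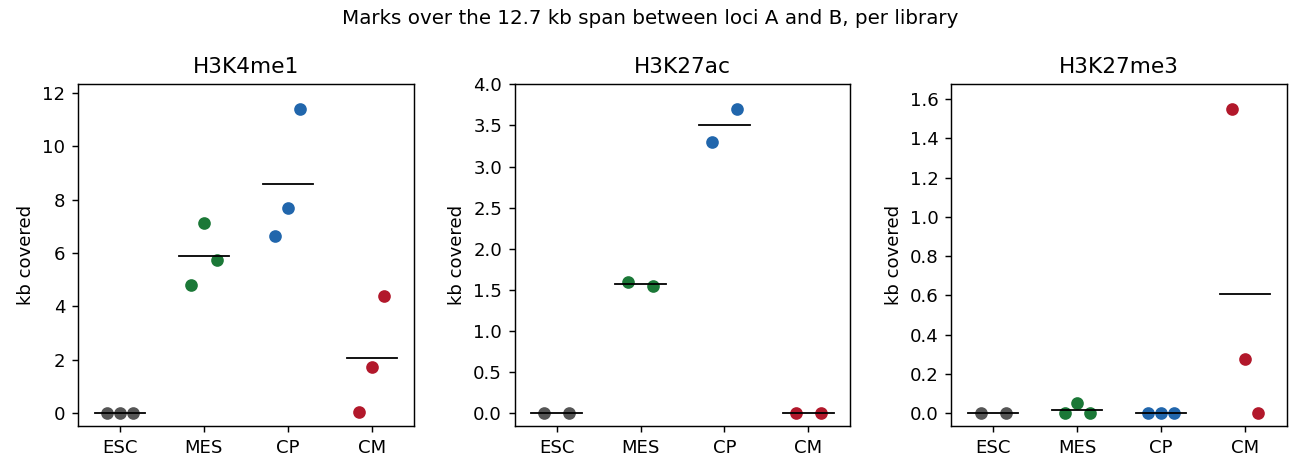
Covered length in kb of H3K4me1, H3K27ac and H3K27me3 over the 12.7 kb span at chr13:72498301-72511000, by stage. Points are libraries and lines their means. H3K4me1 and H3K27ac stand above 0 in all MES and CP libraries and at 0 in all ESC libraries, and H3K27ac is at 0 in both CM libraries.

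The longest H3K4me1 region lost in CM against CP was chr8:94587501-94591250, 3750 bases long and to the left of the locus at chr8:94594676-94596700. H3K4me1 covered 2650, 3750 and 3700 bases of it in ESC, 2625, 3500 and 3675 in MES, 2150, 1825 and 1375 in CP and none in CM. It held H3K27ac over 1575 and 200 bases in ESC and 400 and 0 in MES, and none later. H3K27me3 covered none of it in ESC, 25, 0 and 0 bases in MES, 2375, 175 and 0 in CP and 1400, 25 and 0 in CM. H3K4me1 was thus absent in all 3 CM libraries, and H3K27me3 was called in 2 of the 3.

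Active distal regions were few, counting an H3K4me1 region found in all libraries of its stage that also held H3K27ac in all of them and H3K4me3 in none. Among H3K4me1 regions called in all libraries of a stage, ESC had 1 of 6, MES 3 of 62, CP 1 of 34 and CM 1 of 21, beside 14.2%, 11.6%, 13.1% and 20.4% of all such regions. The one in CP, chr8:94341601-94344275, to the right of F, had H3K27ac over 1100 and 1750 bases at the 70.2 and 74.8 percentiles and H3K4me1 over 2600, 2675 and 2625 bases. H3K27ac was absent from it at every other stage. The MES ones were chr13:73062301-73063100, chr8:94387651-94391975 and chr8:94637301-94639075, with mean H3K27ac percentiles of 36.3, 65.5 and 46.6, and none of them had H3K27ac at another stage.

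The CM one, chr13:72335376-72336575, between A and B, had H3K4me1 over 950, 550 and 1200 bases and H3K27ac over 700 and 650 bases in CM. Outside CM it had H3K4me1 over 250 bases in CP replicate 1 and nothing more of either mark. The ESC one was chr13:73237501-73238025, with H3K4me1 over 250, 450 and 525 bases and H3K27ac over 225 and 425 bases, and neither mark at a later stage. No active distal region was thus shared by 2 stages, though the 12.7 kb span above, with both marks in MES and CP, fell outside the rule because of short H3K4me3 calls.

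Over the whole windows, 4 of 145 H3K27ac regions were gained in CM against ESC, beside 5.31%, and 8 lost, beside 9.25%. Those gained were a pair at and beside the CM distal region, chr13:72335551-72336250 and chr13:72336676-72337350, and a pair at chr8:94490801-94491375 and chr8:94491651-94492200. In CM against CP, 9 were lost, beside 3.06%, among them 3 within the 12.7 kb span and 1 at G, and 3 were gained, beside 3.66%. In MES against ESC, 5 were gained, beside 3.20%, and 7 lost, beside 7.30%. Of 62 H3K4me3 regions, none was gained in CM against ESC, beside 1.46%, and 10 were lost, beside 25.8%. The losses lay at C, at E and at the 8 loci with H3K4me3 only in ESC. With every list trimmed to an equal number of its tallest regions, H3K4me3 had 6 gained and 2 lost and H3K27ac 5 gained and 4 lost, so both balances turned. Without replicate 1, H3K27ac had 14 gained and 13 lost.

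Between neighbouring stages, H3K4me3 in MES against ESC had 2 gained, beside 0.791% of all regions, and 11 lost, beside 24.6%. In CP against MES it had 0 gained, beside 0.636%, and 2 lost, beside 0.641%, and in CM against CP 0 gained, beside 0.892%, and 1 lost, at E, beside 0.606%. H3K27me3 in MES against ESC had 0 gained, beside 2.47%, and 0 lost, beside 0.108%. It had 0 lost in CP against MES, beside 0.163%, and in CM against CP 0 gained, beside 0.0229%, and 0 lost, beside 1.95%. By its definition, an H3K27me3 gain in CM needs a call in the short list of CM replicate 3, and a loss from ESC one in that of ESC replicate 3.

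H3K4me1 in CP against MES had 3 gained, beside 1.44%, and 13 lost, beside 2.26%, 11 of the 13 in the chr8 window and 7 of them between F and G. None of the 13 was called in any CM library. H3K27ac in CP against MES had 6 gained, beside 2.66%, and 7 lost, beside 3.25%. RNAPII Ser5P had 13 lost in MES against ESC, beside 31.9%. In CP against MES it had 0 gained, beside 1.37%, and 1 lost, beside 2.26%, and in CM against CP 0 gained, beside 0.380%, and 2 lost, beside 4.11%.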

How the data were processed

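Enriched regions of 46 libraries were used, each list deposited for 1 library. Reads were aligned with Bowtie to mm9, per the submitters' processing notes; versions, and the program that called the regions, are not given in the sources used here. Peak height is a signal deposited by the authors, the highest 25-base bin of a region as its header names it, with no stated scaling, so heights were turned into percentiles within a list. Region lengths are as deposited. The 8 whole cell extract libraries were not used here. The series describes the replicates as biological.

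Chromosomes 1 to 19 and X were kept. Regions overlapped if they shared at least 1 base. Covered lengths, gains and losses were computed with Python 3.11.15, numpy 2.4.6 and pandas 2.3.3. On simulated lists for H3K4me1 in CM against ESC, with 20000 regions, 100.0% of 200 planted gains were recovered. No count or length was tested. The windows, members and lists were chosen with earlier results of these data known. Named regions are all H3K4me3 loci, up to 5 active distal regions per window by H3K27ac height, and the longest H3K27me3 and RNAPII Ser5P regions; others named were chosen after their values were seen. No gaps shorter than 225 bases separate regions of a list.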

Additional observations from a re-analysis of the deposited data

How the results depend on the processing

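The counts of gained and lost regions moved with the settings, and for H3K4me3 and H3K27ac the balance of gains and losses in CM against ESC turned under some of them; the cause was not tested. With every list trimmed to an equal number of its tallest regions, CM against ESC gave 6 H3K4me3 regions gained and 2 lost (0 and 10 as reported), 1 H3K27me3 region lost (0), 5 H3K27ac regions gained and 4 lost (4 and 8), 5 H3K4me1 regions gained and 2 lost (10 and 6) and 7 RNAPII Ser5P regions lost (17), with 4 loci holding both H3K4me3 and H3K27me3 in CP (9) and 2 active distal regions in CP and 0 in CM (1 each). With regions of at least 500 bases, 1 H3K4me3 region was gained and 5 lost, 1 H3K27ac gained and 4 lost, 4 H3K4me1 gained and 2 lost, 0 RNAPII Ser5P regions gained (2) against 8 lost, and both marks were held by 1 locus in ESC (8) and 0 in CM (1), with 0 active distal regions in CM. With regions closer than 1 kb merged, 2 H3K27ac regions were gained (4), 11 RNAPII Ser5P lost and 3 active distal regions found in ESC (1). With more than 50% of the libraries of a stage in place of all, 1 H3K4me3, 10 H3K27me3 and 33 H3K4me1 regions were gained and 24 H3K4me1 lost, the numbers of active distal regions were 5 for ESC, 7 for MES, 5 for CP and 2 for CM, and both marks were held by 10 loci in CM. A count was judged to have moved only beyond a fixed ratio to the reported value, and by that limit an overlap of 50% moved none. Counts not listed under a setting therefore need not be identical to those reported. Joining H3K4me3 regions only where they touch gave 15 loci with both marks in MES and 14 in CP.

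Without H3K27me3 ESC replicate 3 and CM replicate 3, chosen after seeing the data, 6 H3K27me3 regions were gained and 2 lost, and 10 loci held both marks in CM. Leaving out 1 replicate number at a time gave 1 H3K4me3 region gained and 19 to 26 lost, 0 to 6 H3K27me3 gained and 0 to 2 lost, 10 to 14 H3K27ac gained and 13 to 37 lost (14 and 13 without replicate 1), 11 to 24 H3K4me1 gained and 9 to 14 lost, 1 to 5 active distal regions for ESC, 5 to 19 for MES, 3 to 4 for CP and 1 to 4 for CM, and 1 to 10 loci with both marks in CM. Fewer libraries to agree makes a gain or loss easier by construction. H3K27me3 covered lengths of the windows moved by less than 1 SD between libraries, a loose limit. In the Irx1-Irx2-Irx4 window the SD was 19.9 kb beside a mean of 15.6 kb in ESC, and 19.3 beside 16.9 kb in CM. A large shift could therefore still pass it. Without replicate 2 there is no RNAPII Ser5P value in ESC. No paired analysis was possible because the results come from no test. Depth is unknown, so a missing call does not show a missing mark.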
